A study of Mus musculus with 17 samples.

Results

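Chromatin accessibility was compared between the diestrus and the proestrus stage of the estrous cycle in neurons of cocaine-treated female mice. The assay was ATAC-seq, in which a transposase cuts open chromatin and clusters of cuts are called as peaks. The comparison rests on 6 of the 17 libraries of the series, 3 titled diestrus cocaine (1, 2 and 3) and 3 titled proestrus cocaine (1, 2 and 4). Each library came from nuclei pooled from 3 mice.

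All mice were labelled C57BL/6 (C57BL/6J in the study's methods) and were 52 to 54 days old. The females of both groups received 10 mg/kg cocaine intraperitoneally, and the bilateral nucleus accumbens was taken 1 h later. Nuclei were sorted on NeuN, a nuclear protein of neurons, and stage was assigned from the cells of vaginal smears. The series also holds female control libraries of each stage (3 and 3) and male libraries (3 control and 2 cocaine), which are used here only as a background. No genetic modification is given for any group.

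Autosomal peaks of the 6 libraries (chromosomes 1 to 19) were merged wherever they overlapped, which gave 205681 regions. A region was counted as diestrus only when it held a peak in all 3 diestrus libraries and in no proestrus library, and as proestrus only in the opposite case. There were 442 diestrus only regions (0.215% of the merged regions) and 840 proestrus only regions (0.408%). Regions called in all 6 libraries numbered 52192. The calls themselves chose the one-stage regions, so their calls and fold values are a description and carry no test.

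The nucleus accumbens is a ventral striatal relay of reward, built mostly of GABAergic medium spiny neurons that carry dopamine D1 or D2 receptors. Cocaine blocks dopamine reuptake, and within an hour striatal neurons induce immediate early genes such as Fos, whose products join Jun proteins into the AP-1 factor. AP-1 binds the heptamer TGACTCA, or TGAGTCA on the opposite strand, largely at enhancers. Ovarian estradiol is high around proestrus and low in diestrus, and it acts on neurons through nuclear receptors that bind estrogen response elements and through membrane signalling.

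The sequences below show the chromatin behind the tallest calls. Each is GRCm38 (mm10), plus strand, and covers 100 bases on either side of the highest summit of the region, and capitals mark AP-1 heptamers. The 4 diestrus only loci with AP-1 heptamers come first, out of the 10 tallest of that class. The Nav2 and Ccdc54 windows held 3 heptamers each, with a directly repeated pair at Nav2.
Nav2 intron, diestrus only, chr7:49253064-49253264: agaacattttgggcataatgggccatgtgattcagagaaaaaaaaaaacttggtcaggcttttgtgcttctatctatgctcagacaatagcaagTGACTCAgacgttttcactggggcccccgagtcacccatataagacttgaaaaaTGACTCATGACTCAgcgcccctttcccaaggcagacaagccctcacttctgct
9.57 kb from Ccdc54, diestrus only, chr16:50600817-50601017: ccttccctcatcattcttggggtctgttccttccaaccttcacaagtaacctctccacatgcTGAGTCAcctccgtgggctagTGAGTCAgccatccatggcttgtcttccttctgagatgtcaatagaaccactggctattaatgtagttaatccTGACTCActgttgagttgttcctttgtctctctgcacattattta
33.9 kb from Fam173b, diestrus only, chr15:31636187-31636387: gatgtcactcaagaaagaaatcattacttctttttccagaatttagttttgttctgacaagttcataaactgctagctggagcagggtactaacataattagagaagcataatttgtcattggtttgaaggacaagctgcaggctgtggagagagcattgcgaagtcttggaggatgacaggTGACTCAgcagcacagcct
Gene desert nearest Cntnap5b, diestrus only, chr1:101491492-101491692: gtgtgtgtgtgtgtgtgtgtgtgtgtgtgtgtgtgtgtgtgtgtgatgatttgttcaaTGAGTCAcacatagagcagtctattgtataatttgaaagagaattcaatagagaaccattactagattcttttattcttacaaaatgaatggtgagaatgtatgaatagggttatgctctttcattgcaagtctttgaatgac
The locus 46.8 kb from Penk is shown because Penk encodes preproenkephalin, the opioid peptide precursor of D2-type medium spiny neurons.
Nearest Penk, diestrus only, chr4:4185735-4185935: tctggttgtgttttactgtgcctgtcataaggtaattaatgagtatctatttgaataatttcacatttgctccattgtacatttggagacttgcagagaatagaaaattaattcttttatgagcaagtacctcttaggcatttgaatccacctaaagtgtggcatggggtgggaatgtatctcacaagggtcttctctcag
Of the 10 tallest proestrus only loci, none of which held an AP-1 heptamer, Tmtc2 and Rgs2 are shown.
Tmtc2 intron, proestrus only, chr10:105489650-105489850: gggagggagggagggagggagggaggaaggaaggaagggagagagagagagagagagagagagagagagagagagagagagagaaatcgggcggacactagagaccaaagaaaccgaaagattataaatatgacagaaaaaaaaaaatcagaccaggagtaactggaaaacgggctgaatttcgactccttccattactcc
Nearest Rgs2, proestrus only, chr1:144090556-144090756: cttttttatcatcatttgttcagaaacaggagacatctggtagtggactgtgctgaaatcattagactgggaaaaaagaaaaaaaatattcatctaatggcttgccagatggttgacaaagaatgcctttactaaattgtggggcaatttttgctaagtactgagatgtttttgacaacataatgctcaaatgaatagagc
Runs of short tandem repeats stood in the Cntnap5b and Tmtc2 windows, with a longest run of 44 bases at Cntnap5b and 46 bases at Tmtc2. A run of at least 30 bases with a unit of up to 6 bases was present in 1.58% of diestrus only regions, 1.55% of proestrus only regions and 1.56% of all merged regions. Reads align less uniquely in such repeats, and the part of alignment in these loci was not tested.

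Some properties of the libraries touch every result. The diestrus cocaine library 2 has no stage in its stage label and was placed by its title. The deposited files hold peaks and no read totals, so sequencing depth is unknown. Peaks numbered 155025, 109849 and 98188 in diestrus cocaine libraries 1, 2 and 3, and 126381, 117757 and 127524 in proestrus cocaine libraries 1, 2 and 4. All 10 neuron marker promoters were called in each of the 6 libraries, while 9 of 10 microglial marker promoters were called in none.

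Proestrus cocaine library 2 stood apart by its glial markers. All 10 oligodendrocyte marker promoters were called there, against 3 to 5 in the other 5 libraries, and the fold values summed over the list were 58.0 there against at most 25.5 in any diestrus library. Mog, Mag, Sox10, Ermn and Opalin, genes of myelin and of the oligodendrocyte lineage, were called at their promoters in that library alone. Astrocyte marker promoters called numbered 3 to 5 per library, with Aqp4, Aldh1l1 and Gja1 called in none. Of 16 interneuron and cortical neuron marker promoters, 1 to 5 were called per library and 7 in none. Slc17a7 was called in diestrus library 1 alone, at 13.7-fold, and Neurod2 and Neurod6 in proestrus libraries 1 and 4 alone. Calb2 was called in all 6 libraries, and Tbr1 and Slc17a6 in libraries of both stages. In sorted bulk nuclei, more nuclei of one type and more open chromatin per nucleus cannot be told apart.

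Libraries of the same stage shared about as many calls as libraries of different stages. The Jaccard index of calls, the share of regions called in both of 2 libraries among those called in either, averaged 0.530 over the 6 same-stage pairs (0.428 to 0.600) and 0.533 over the 9 pairs of different stage (0.470 to 0.592). Pairs share libraries, so these values are a description.

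Across whole libraries, none of 7 measures differed between the stages by a two-sided exact permutation test over the 20 assignments, whose smallest possible p is 0.1. Mean GC content around peak summits was 47.1% ± 0.0532 (SD, n = 3) in diestrus and 46.0% ± 0.990 (SD, n = 3) in proestrus, with an exact p of 0.2 and an adjusted p of 0.84. The 3 diestrus libraries lay at 47.0%, 47.1% and 47.1%, while proestrus libraries 1 and 4 lay at 45.7% and 45.2% and library 2 at 47.1%. The 2 groups overlapped through proestrus library 2 alone.

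The share of peaks with an AP-1 heptamer was 9.56%, 10.6% and 9.68% in the diestrus libraries and 10.3%, 8.69% and 9.62% in the proestrus libraries. The means were 9.94% ± 0.557 and 9.53% ± 0.804 (SD, n = 3 each), with an exact p of 0.5, and the groups overlapped. All 6 values lay above those of the 6 female controls (7.48% to 8.07%). Cocaine, injection and time after it cannot be told apart in that comparison. The number of peaks (exact p = 0.9), median peak width (0.6), the share of peaks within 1 kb of a protein-coding start (0.6) and the shares with a cAMP response element (1) or an estrogen response element (0.5) also overlapped between the stages.

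The same stage difference was set against the female controls, whose libraries carry no cocaine. GC content was 47.0% ± 0.773 (SD, n = 3) in diestrus controls and 47.7% ± 0.399 in proestrus controls, so the sign of the stage difference was opposite to that after cocaine. The difference of differences was 1.79 percentage points, with an exact permutation p of 0.04 over 400 assignments and an adjusted p of 0.12 over the 3 interactions tested. The stage difference after cocaine did not differ detectably from that in controls for the number of peaks (exact p = 0.48) or the AP-1 share (0.885), where the difference of differences was 0.108 percentage points.

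**Figure D1:**
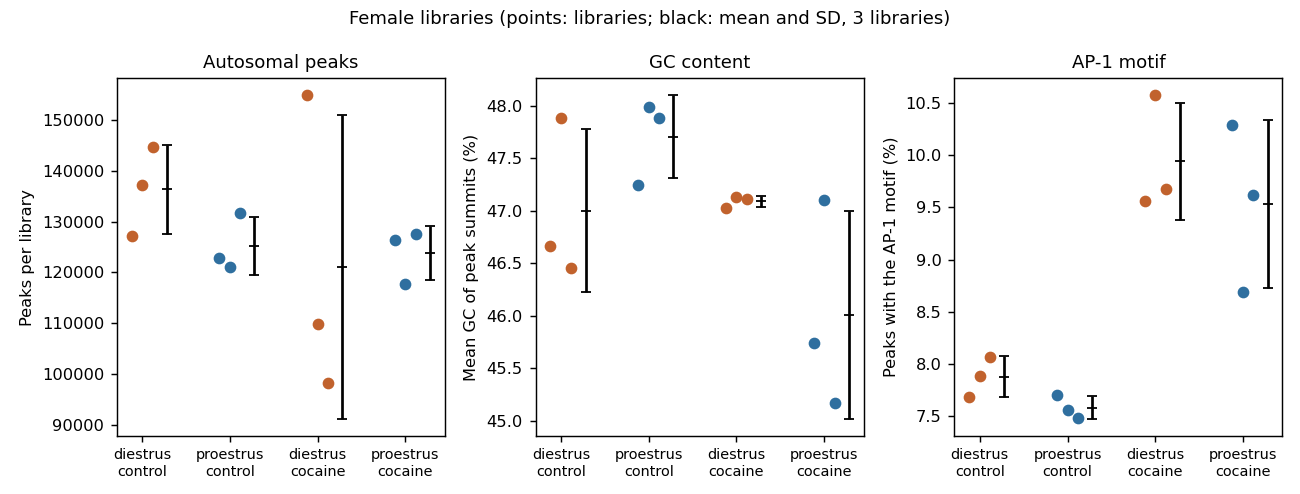
Points are the 3 libraries of each female group, with the mean and SD in black. The axes give the number of autosomal peaks, mean GC content of peak summits in percent and percent of peaks with an AP-1 heptamer. Proestrus cocaine libraries 1 and 4 have the lowest GC content, 45.7% and 45.2%, and the diestrus cocaine libraries span 98188 to 155025 peaks.

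In regions called in all 6 libraries, fold enrichment is known in every library and could be tested. Fold enrichment is the pileup of fragments at a peak over a background that was constant within a library. Its median log2 value over the shared regions was 2.63 in diestrus library 1 and 2.13 in diestrus library 3. The proestrus libraries had 2.27 to 2.38, and diestrus library 2 lay between them and diestrus library 1. Log2 differences are of values centred on these medians, while fold values printed for single regions are not centred and carry this library-wide scale. By limma on log2 fold enrichment, 0 of 52192 shared regions (0.0%) were higher in diestrus and 0 (0.0%) were higher in proestrus at an adjusted p under 0.05. At an unadjusted p under 0.05, 697 (1.34%) were higher in diestrus and 948 (1.82%) in proestrus. The smallest adjusted p was 1.00.

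The size of what could be seen is given by the spread. The middle 95% of log2 differences ran from -0.39 to 0.36, and 98.9% were under 0.5 in size. The median 95% interval was ±0.41 on the log2 scale. In data simulated on these regions for this comparison, 17 of 50 regions changed by 1 on the log2 scale were recovered, 38 of 50 changed by 1.5 and 48 of 50 changed by 2. In that simulation, differences of 1 at single regions were mostly not recovered with 3 libraries a stage. Its noise was drawn from each region's own within-stage SD, which limma moderates across regions, so recovery in the data may differ.

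The shared regions with the smallest unadjusted p, none of which passed the adjusted test, are given as values. An intron of Rab3c, which encodes a synaptic vesicle GTPase (chr13:110109390-110110381), had fold values of 5.10, 4.15 and 2.87 in diestrus and 7.31, 5.67 and 7.44 in proestrus. The stages did not overlap there, with a log2 difference (diestrus minus proestrus) of -0.89 ± 0.20 (SE) and an adjusted p of 1.00 by limma. An intron of Zfp516 (chr18:82931463-82931980), a zinc finger gene, had 6.17, 4.91 and 3.45 in diestrus and 2.20, 2.46 and 2.62 in proestrus. Its log2 difference was 0.85 ± 0.20 (SE, adjusted p = 1.00, limma).

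Further regions of the same rank lay in introns of Lrmda (0.78) and Uqcc1 (0.75), a mitochondrial complex III assembly gene, toward diestrus, and 163 kb from Kcnh7 (-0.75), a potassium channel gene, toward proestrus. The region 99.4 kb from Gm8882 had the second smallest p toward proestrus but rested on 1 library: its folds were 7.72, 5.03 and 3.56 in diestrus and 5.81, 10.2 and 35.1 in proestrus.

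Most starts of the list genes were called in both stages. Of 238 genes on 10 lists, 197 had a region over or near their start that was called in all 6 libraries, and 22 had none called. The median log2 difference over the 197 was 0.06, against 0.01 over all shared regions, and the range ran from -0.39 to 0.54. Only Csmd1 and Cntn5, genes of neuronal surface proteins, had an unadjusted p under 0.05, with log2 differences of 0.54 and 0.50 and adjusted p of 1.00 by limma.

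At the start of Fos, the archetypal immediate early gene, fold enrichment was 14.7, 17.4 and 9.53 in the diestrus libraries and 11.7, 13.4 and 11.4 in the proestrus libraries. The groups overlapped, with a log2 difference of 0.04 ± 0.20 (SE). At Drd1, the D1 receptor gene, the values were 11.9, 10.6 and 5.28 against 8.11, 6.52 and 7.44. At Drd2, the D2 receptor gene, they were 6.29, 6.16 and 4.94 against 4.01, 4.49 and 5.13, and the groups overlapped again. Penk had 10.5, 13.5 and 7.81 in diestrus and 9.41, 8.02 and 8.06 in proestrus. After centring, the log2 differences were 0.14 ± 0.21 (SE) at Drd1, 0.24 ± 0.20 at Drd2 and 0.17 ± 0.20 at Penk.

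Of the hormone receptor genes, Pgr, the progesterone receptor gene, was called in every library (3.32, 4.53 and 4.36 in diestrus, 3.71, 3.64 and 3.35 in proestrus). Oxtr, the oxytocin receptor gene, was too, with 5.46, 7.04 and 4.82 against 6.51, 7.27 and 6.07. The start of Esr1, the estrogen receptor alpha gene, was called in none, and that of Esr2, the estrogen receptor beta gene, in diestrus library 1 alone at 2.49-fold. These genes were chosen for display with their values in view.

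The one-stage regions were weak peaks. The lowest fold over the 3 calling libraries ran from 2.07 to 3.91 (median 2.53) in diestrus only regions and from 2.09 to 3.61 (median 2.46) in proestrus only regions, where the weakest peak deposited in any of the 6 libraries was at 1.99-fold. A lowest fold of 3 or more was reached by 22 regions in each direction. All 3 calls had a -log10 q of at least 5 in 18 diestrus only and 39 proestrus only regions. Just outside the rule lay 1607 regions called in 3 diestrus and 1 proestrus library and 3899 called in 2 diestrus and no proestrus library. For proestrus the matching counts were 3313 and 5963.

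Both counts moved with single libraries. Leaving out diestrus cocaine library 2, which lacks a stage label, gave 1633 and 1647, and leaving out proestrus cocaine library 2, with the glial markers, gave 1230 and 4677. A rule over fewer libraries admits more regions, so the balance between the stages is the value to read. Proestrus only regions outnumbered diestrus only regions in all alternatives except without diestrus library 3, the library with the fewest peaks, which gave 2681 diestrus only and 1273 proestrus only regions. Without diestrus library 1 the counts were 1092 and 3113, without proestrus library 1 they were 1029 and 2067, and without proestrus library 4 they were 787 and 1982.

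With the same number of strongest peaks taken from each library, 98188, the counts were 483 and 605. Among the female controls, on the same merged regions, 5492 (2.67%) were called in all 3 diestrus and no proestrus control library and 1329 (0.646%) in the opposite case. Both shares were above those of the cocaine libraries, 0.215% and 0.408%.

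**Figure D2:**
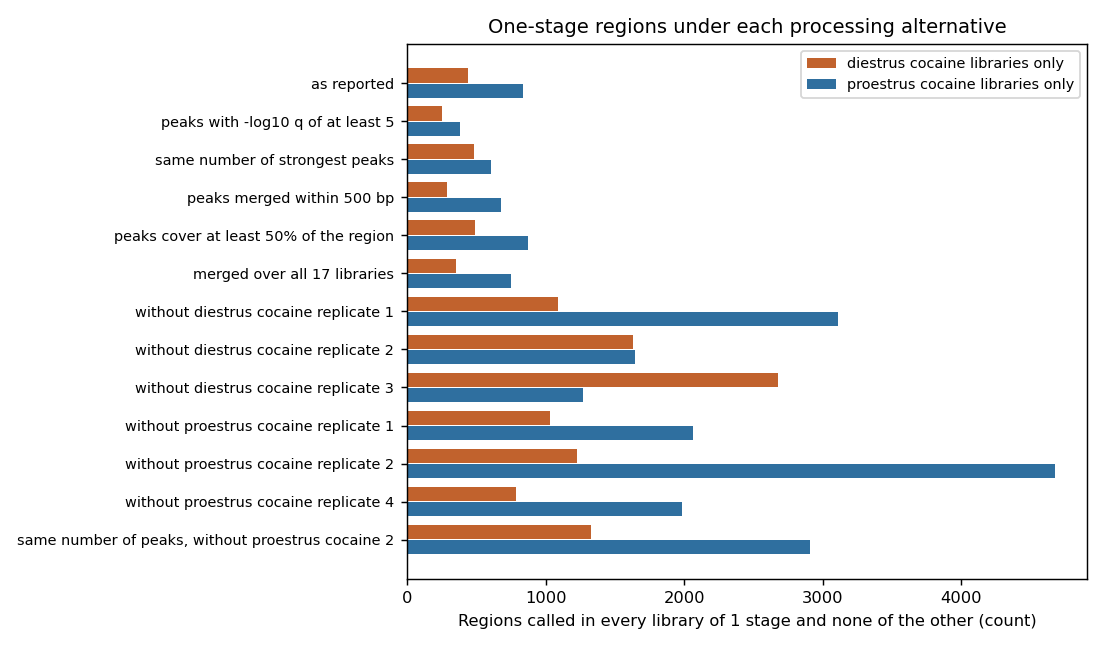
Bars count the regions called in every library of one stage and in none of the other, as reported and under each alternative. The reported 442 and 840 become 2681 and 1273 without diestrus cocaine library 3 and 1230 and 4677 without proestrus cocaine library 2.

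The one-stage regions were also looked up in mice without cocaine. In the controls, 8 of 442 diestrus only regions (1.81%) were again called in all diestrus and no proestrus libraries, against 2.67% of all merged regions, and 7 (1.58%) showed the opposite pattern. Of 840 proestrus only regions, 11 (1.31%) showed their own pattern, against 0.646% of all merged regions, and 17 (2.02%) the opposite one. None of the 6 female controls called 119 diestrus only regions (26.9%) and 227 proestrus only regions (27.02%), against 27.1% of all merged regions. In the male libraries, 59 diestrus only regions (13.3%) and 259 proestrus only regions (30.8%) were called in all 3 controls, against 36.4% of all merged regions. Shares of all merged regions, here and below, include regions called in all 6 cocaine libraries, which the rule excludes. Of the 74918 merged regions called in all 3 male controls, 47569 were of that kind. Of the 55830 called in no female control, 289 were. The shares of all merged regions are therefore no matched background.

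By position, one-stage regions lay at gene starts less often than all merged regions did. Within 1 kb of a protein-coding start were 20 diestrus only regions (4.52%) and 19 proestrus only regions (2.26%), against 9.09% of all merged regions and 22.9% of those called in all 6. Of the 18687 merged regions at starts, 11946 were called in all 6, which the rule excludes. The comparison with all merged regions is therefore not one of position alone. Introns held 60.4% and 68.3%, against 57.8% of all merged regions. A region called in all 6 libraries lay within 500 bp of 91 diestrus only regions (20.6%) and 113 proestrus only regions (13.5%), against 15.9% of all regions not called in every library. Those regions flanked chromatin that was called in both stages.

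Base composition differed between the 2 classes, by an amount that depended on single libraries. Median GC content around the summit was 45.5% in diestrus only and 38.3% in proestrus only regions, against 44.8% in all merged regions. Below 35% GC, 293 of 30738 merged regions (0.953%) were proestrus only and 44 (0.143%) diestrus only. From 50% to 60% GC the order was opposite, with 52 (0.119%) proestrus only and 110 (0.252%) diestrus only of 43708. Proestrus cocaine libraries 1 and 4 also had the lowest GC content over all their peaks, as given above, and the part of library composition in this difference was not tested. The medians were 47.5% and 37.8% without proestrus library 2, but 43.3% and 42.3% without diestrus library 1. The diestrus only median was the higher in every alternative.

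The AP-1 heptamer also differed in frequency between the classes, but the difference depended on single libraries. It was present in 54 diestrus only regions (12.2%, 95% Wilson interval 9.49% to 15.6%) and in 35 proestrus only regions (4.17%, 3.01% to 5.74%), against 8.88% of all merged regions and 13.1% of those called in all 6. These intervals cover counting error only. Between 40% and 50% GC the shares were 13.6% and 3.72%, against 10.6% of all regions of that composition. Below 35% GC the order was opposite, with 1 of 44 diestrus only regions (2.27%) and 9 of 293 proestrus only regions (3.07%), against 5.87%.

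Without proestrus cocaine library 2, the library with the lowest AP-1 share over all peaks and with the glial markers, the shares were 8.05% and 7.63%. With the same number of strongest peaks in each of those 5 libraries, they were 8.496% in diestrus only and 10.4% in proestrus only regions, the opposite order. Without diestrus library 2 they were 7.04% and 5.53%. In every other alternative the diestrus only share was the higher. It was 17.3% against 7.87% with peaks of -log10 q of at least 5. Without diestrus library 3 it was 10.7% against 4.79%. The opposite order arose only in the alternative with equal numbers of peaks without proestrus library 2, chosen after seeing the data. The size of the difference was thus not stable.

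Other motifs were rare. The cAMP response element, TGAC followed directly by GTCA, was present in 1 diestrus only and 2 proestrus only regions, against 0.428% of all merged regions. The estrogen response element, GGTCA and TGACC spaced by 3 bases, was in none of either class and in 38 of 205681 merged regions (0.0185%). The progesterone response element, GNACA and TGTNC spaced by 3 bases, was in 4 diestrus only (0.905%) and 3 proestrus only regions (0.357%), against 0.464% of all. The MEF2 motif was in 22 (4.98%) and 57 (6.79%), against 5.50%, and the CTCF motif in 3 (0.679%) and 14 (1.67%), against 1.24%. Absence of these letters says nothing of factor binding.

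**Figure D3:**
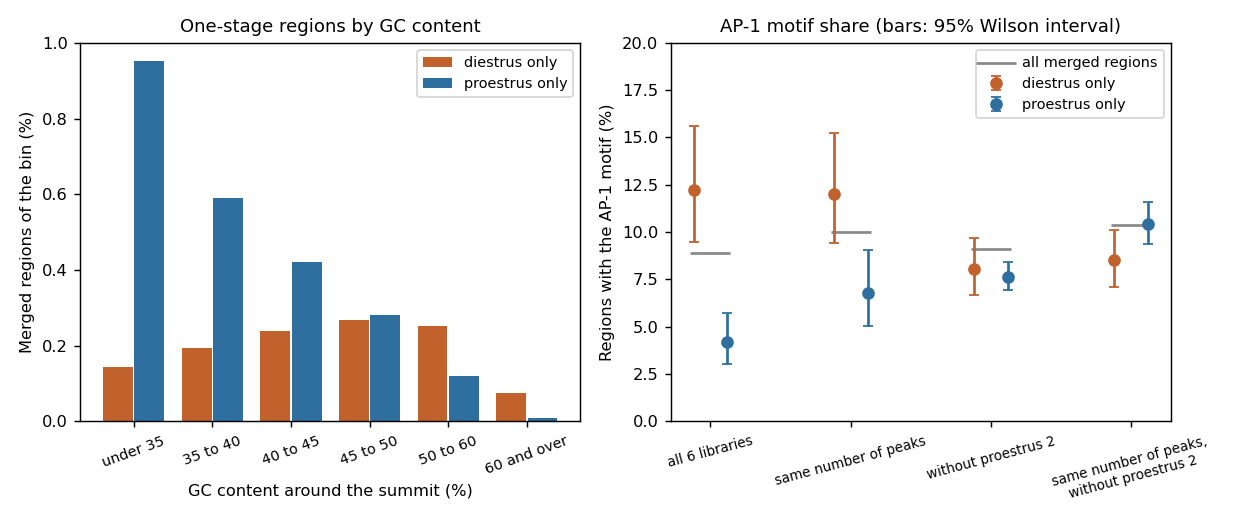
The left axes give the percent of merged regions in each bin of summit GC content that were diestrus only or proestrus only. The right axes give the percent of regions with the AP-1 heptamer in each class with 95% Wilson intervals, beside all merged regions: 12.2% and 4.17% with all 6 libraries, and 8.05% and 7.63% without proestrus cocaine library 2.

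The tallest diestrus only locus lay at chr10:17607397-17607899, 115 kb from Cited2, a transcriptional coregulator gene that binds CBP and p300. Its fold values were 4.27, 4.03 and 3.91 in diestrus libraries 1, 2 and 3, with no call in the 3 proestrus libraries and none in the other 11 libraries of the series. Next came an intron of Nav2, which encodes a cytoskeletal protein of growing axons (chr7:49252999-49253624), with 4.27, 3.65 and 3.56. Nav2 differed from Cited2 in the controls, where 2 diestrus and 2 proestrus control libraries called it.

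The region 9.57 kb from Ccdc54 (chr16:50600720-50601124), whose 3 AP-1 heptamers are printed above, had 4.04, 3.40 and 4.13. No control or male library called it. A further 2 tall loci with AP-1 heptamers lay 33.9 kb from Fam173b, a mitochondrial methyltransferase gene (chr15:31636060-31636540; 4.39, 3.77 and 3.33), and 1394 kb from the start of Cntnap5b, a contactin-associated adhesion gene (chr1:101491450-101491760; 3.32, 4.03 and 4.02). Neither was called in any of the 11 other libraries.

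Near Penk, the region at chr4:4185608-4186028 had 3.21, 3.27 and 3.45 in the diestrus libraries and no call elsewhere in the series. It lay inside a gene model that is not protein coding, while the Penk start itself was open in all 6 libraries, as given above. The other tall diestrus only loci were the Hpcal1 promoter, described next, a gene desert nearest Slc10a2, a locus 77.9 kb from Ccser1 and an intron of Nup37, a nuclear pore gene. In all, 4 of the 10 held an AP-1 heptamer and 6 were called in no library outside the 3 diestrus ones. None of the other 11 libraries called 76 of the 442 diestrus only regions (17.2%) and 76 of the 840 proestrus only regions (9.05%), against 19.04% of all merged regions, so the tallest loci do not stand for their class.

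Of the proestrus only loci, the tallest was an intron of Lrfn5, a synaptic adhesion gene, in a stretch that also holds a tandem repeat, with 3.61, 3.64 and 3.98 in proestrus libraries 1, 2 and 4. It was also called in all 3 diestrus controls, 1 proestrus control and all 3 male controls. A locus 13.6 kb from Cep68, a centrosome gene (chr11:20263018-20263571), had 3.61, 3.42 and 3.35, and an intron of Tmtc2 (chr10:105489546-105490076) had 3.71, 3.96 and 3.25.

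Smap1, an Arf GTPase-activating protein gene, was called at its promoter with 3.30, 3.21 and 3.46. The locus 86.3 kb from Rgs2, which encodes a regulator of G protein signalling (chr1:144090490-144090916), had 3.20, 3.21 and 3.56. The remaining loci lay near 4933415F23Rik, Ankrd16 and Colgalt2 and in introns of Abca13 and Acta2, with lowest folds between 3.10 and 3.21. All 10 proestrus only loci were called in at least 1 male control, against 2 of the 10 diestrus only loci, and none held an AP-1 heptamer. Over the whole classes the contrast was smaller, since no male control called 25.1% of proestrus only and 48.0% of diestrus only regions, against 39.0% of all merged regions. With peaks required to cover at least 50% of the region, 9 of the 10 diestrus only and 6 of the 10 proestrus only loci kept their pattern, and with peaks merged within 500 bp 9 and 9 did. Stricter peak strength is no check of these loci, which were chosen for strong calls.

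Of the 20 promoter regions called in diestrus only, Hpcal1, a neuronal calcium sensor gene, had the highest folds (chr12:17689489-17690013; 4.87, 3.40 and 3.68). It lay 843 bp from the start and 278 bp from a region called in all 6 libraries. That neighbour had 7.95, 7.55 and 5.40 in diestrus and 3.71, 6.42 and 4.08 in proestrus, with overlap at proestrus library 2. Il18, a cytokine gene, had 3.32, 3.27 and 2.76, and was called in all 3 libraries of each control group, both stages and males.

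Pou2f1, which encodes the octamer factor Oct-1, had 2.73, 2.89 and 3.33 over a start and was called in no other library. Trpm3, a cation channel gene, had 2.61, 2.52 and 2.53 and was likewise called in no other library. The Trpm3 region lay 263 bp from a region called in all 6 libraries. It was no longer diestrus only with equal numbers of strongest peaks or with peaks merged within 500 bp. Further diestrus only promoters by rank were Zar1l, Marveld2 (a tight junction gene), Xpo6, Gm14325, Fancd2os, Pdgfrl, Vmn2r1, Lama1 and Col12a1 (matrix genes) and Ywhaz (a 14-3-3 gene), with lowest folds from 2.41 to 2.87.

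Klf4 was the only immediate early gene with a one-stage region. Its diestrus only call (chr4:55531080-55531799; 2.49, 2.77 and 2.87) was a flank, 78 bp from the main promoter region. The main region stood at 32.9, 46.5 and 33.7 in diestrus and 33.9, 32.2 and 35.3 in proestrus, where the stages overlapped. The flank was called in all 3 proestrus controls and in no diestrus control, the opposite of its order after cocaine, and it was no longer diestrus only under any of the 5 alternatives in how peaks were filtered, merged or counted.

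At proestrus only promoters, after Smap1, came Tns1, a tensin gene of focal adhesions (chr1:73996243-73996610; 3.30, 3.64 and 2.83), the only one of the 15 by rank with an AP-1 heptamer. Zfp106, an RNA-binding protein gene, had 3.30, 2.67 and 4.50. The circadian regulator Clock had 3.10, 2.89 and 2.41 at a region 855 bp from a start, which all 3 male controls also called. Adcyap1r1, the receptor gene for the neuropeptide PACAP, had 2.90, 2.57 and 2.41, and Cacnb2, a calcium channel subunit gene, 2.70, 2.46 and 2.51.

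The other proestrus only promoters by rank were Cep170, Ptpn4, Lamtor5, Siae, Pcbp2, Lin28b, Palm, Gm527 and Dlc1. Of the 15 promoters by rank, 4 in diestrus and 3 in proestrus lay within 500 bp of a region called in all 6 libraries. With the same number of strongest peaks per library, 6 of the 15 diestrus only and 4 of the 15 proestrus only promoters kept their pattern.

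Gene lists were described by how many of their merged regions were called in 1 stage. Dopamine and cAMP signalling genes held 998 merged regions, of which 4 were diestrus only (0.401%) and 4 proestrus only (0.401%). An intron of Drd3, the D3 receptor gene, had 3.09, 3.52 and 2.53 in the diestrus libraries, and an intron of Gnal, the striatal G protein gene, had 3.21, 3.52 and 2.76. An intron of Adora2a, an adenosine receptor gene of D2-type neurons, had 2.49, 2.26 and 2.76, and a coding exon of Camk2a, a calcium-dependent kinase gene, 3.09, 2.89 and 2.53. The Adora2a region was called in all 3 proestrus controls and no diestrus control, and lay 117 bp from a region called in all 6 libraries. It was no longer diestrus only under any of the 5 alternatives in how peaks were filtered, merged or counted. Of the proestrus only regions, 3 lay in Pde4b, a cAMP phosphodiesterase gene, and 1 in Creb1.

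Medium spiny neuron genes held 4 diestrus only (0.476%) and 2 proestrus only (0.238%) of 840 regions. Meis2, a striatal homeobox gene, had 3.09, 2.89 and 3.33 in an intron, 28 bp beyond a region called in all 6 libraries. Gad1, the GABA-synthesizing enzyme gene, had 2.85, 2.77 and 2.76, and the other diestrus only regions were in Rarb and Foxp1. The Rarb region also kept its pattern under none of those 5 alternatives. Proestrus only regions lay in Foxp1 and Foxp2. The neuropeptide genes of the list had no one-stage region within the gene or 10 kb before it.

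In estrogen, progesterone and oxytocin signalling, 2 regions of 356 were diestrus only and 2 proestrus only (0.562% each). Ncoa2, a nuclear receptor coactivator gene, held 1 of each, Pgrmc2, a membrane progesterone receptor component gene, a diestrus only call 40 bp from a region called in all 6 libraries (2.49, 2.64 and 2.99), and Esrrg a proestrus only intron call (2.80, 2.46 and 3.04). Immediate early genes held 1 and 0 of 209 regions, and chromatin regulators 1 (Dnmt3a, 0.120%) and 3 (Hdac9, Arid1b and Ythdc1, 0.361%) of 830.

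Glutamate receptor genes held 6 diestrus only (0.305%) and 10 proestrus only (0.508%) of 1969 regions. Gria1, an AMPA receptor subunit gene, had 3 diestrus only regions and 1 proestrus only region. The first, 4.32 kb from the start (chr11:57015708-57016399), had 3.21, 2.64 and 3.33, and the second (chr11:57016564-57017333), with an AP-1 heptamer, had 2.97, 3.14 and 2.64. All 3 lay within 500 bp of a region called in all 6 libraries. The region at the Gria1 start had 14.01, 13.96 and 9.30 in diestrus and 10.6, 12.4 and 9.43 in proestrus. Grik2, a kainate receptor gene, held 3 proestrus only regions and no diestrus only region, while Grm7 held 2 diestrus only and 3 proestrus only regions.

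Synaptic adhesion genes held the most proestrus only regions by count, being also the list with the most merged regions, while GABA receptor genes and neuron markers had higher shares. Synaptic adhesion and scaffold genes held 5 diestrus only (0.111%) and 28 proestrus only (0.623%) of 4494 regions. Ctnnd2, the delta-catenin gene, had 4 proestrus only and 1 diestrus only region, and Nlgn1, the neuroligin 1 gene, 3 proestrus only regions. GABA receptor genes held 1 (0.144%) and 5 (0.718%) of 696, with 2 in Gabra2. Ion channel genes held 9 (0.289%) and 16 (0.515%) of 3109, and Cacna1c, the L-type calcium channel gene, had 4 proestrus only and 2 diestrus only regions.

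Neuron marker genes held 2 (0.266%) and 5 (0.664%) of 753. Of 356 regions at autosomal genes that the study named, 1 at Drd3 was diestrus only and 1 at Ythdc1 proestrus only (0.281% each). The interneuron and cortical neuron, oligodendrocyte, microglial and vascular marker lists held 49, 87, 46 and 26 merged regions, none of them one-stage. The astrocyte markers held 38, of which 1, at Sox9, was diestrus only. These lists are too small for such counts to be read. The lists were not tested, and their shares are read only beside the 0.215% and 0.408% of all merged regions.

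**Figure D4:**
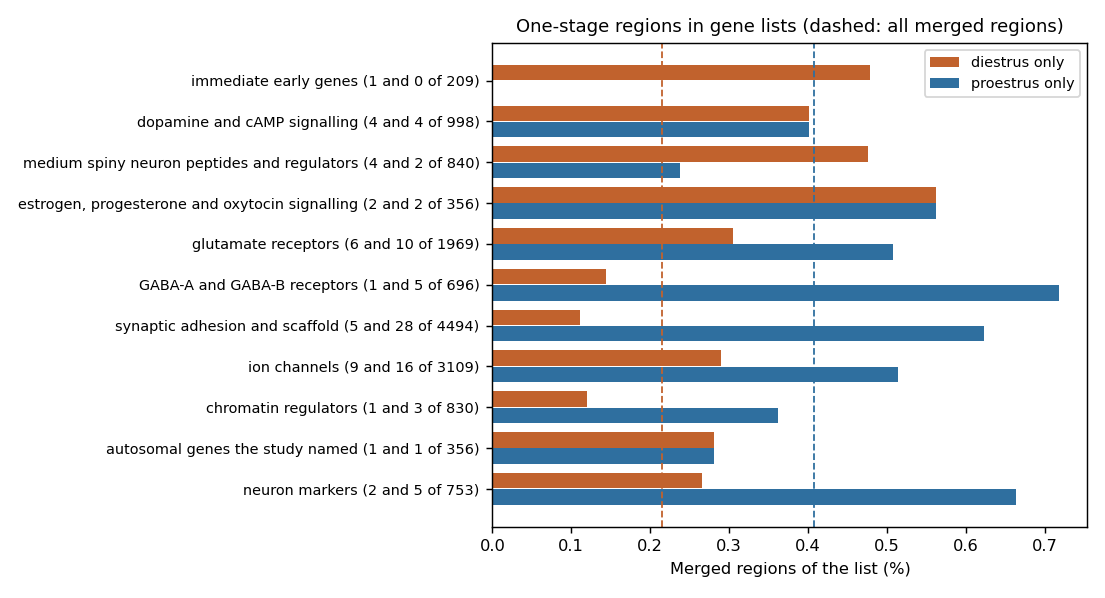
Bars give the percent of the merged regions of each gene list (lists of 200 regions or more) that were diestrus only or proestrus only, with the counts in the labels and the shares over all merged regions as dashed lines at 0.215% and 0.408%. Synaptic adhesion genes stand at 0.111% and 0.623%.

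More genes gathered several regions in proestrus than in diestrus, and the proestrus only class was also the larger. Of diestrus only regions 309 lay inside genes, and of proestrus only regions 650. At least 1 region lay in 289 genes for diestrus and 512 for proestrus, of 14604 genes with a merged region. At least 3 lay in 3 and 27 genes. Tiam1, which encodes an activator of Rac1 in dendritic spines, had 4 diestrus only regions of 174 merged regions over 357 kb, with folds from 2.26 to 3.33 and no proestrus only region. Mb21d2 had 3, with folds up to 4.03 in diestrus library 2. Gria1, described above, was the third.

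Adgrb3 and Adgrl3, adhesion G protein-coupled receptor genes of excitatory synapses, had 6 proestrus only regions each, of 404 merged regions over 762 kb and 298 over 805 kb. Adgrb3 also had 1 diestrus only region and Adgrl3 none. Cadm2, a synaptic cell adhesion gene, and Sh3gl2, the endophilin A1 gene of vesicle endocytosis, had 5 each. Sh3gl2 carried its 5 among 72 merged regions in 434 kb. Negr1 and Hivep2 had 4 each, Hivep2 with 1 diestrus only region beside them, and Ank2 and Cdk13 had 3 each. The size of each class, the GC content of their regions and the number of regions that long genes hold move with these counts. Their part was not tested.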

How the data were processed

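ATAC-seq libraries of sorted NeuN+ nuclei were sequenced by the authors, aligned to mm10 with BWA-MEM, and peaks were called with MACS2 per library; tool versions are not given in the sources used here. The deposited narrowPeak columns used were the fold enrichment (a ratio of pileup to background), the -log10 p (not used further) and -log10 q, and the score, 10 times the -log10 q cut to a whole number, which was not used further. Fold values were whole multiples of one step per library, which corresponds to a constant background pileup of 6.95 to 8.99 fragments in the 6 libraries. The lowest -log10 q deposited was 1.31, so an uncalled region lies below that threshold and is not shown to be closed.

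Autosomal peaks were merged at an overlap of 1 bp or more. Promoters lay within 1 kb of a GENCODE vM21 protein-coding start on GRCm38, the build of mm10, and 0 peaks passed a chromosome end. GC content and motifs (both strands) were read over 100 bp on either side of summits. Shared regions were tested with limma 3.58.1 (R 4.3.3) on median-centred log2 fold enrichment (no pseudocount), with Benjamini-Hochberg adjustment over all 52192. Library measures were compared by exact permutation (numpy 2.4.6, Python 3.11.15) and adjusted over 7 measures or 3 interactions. Named regions were the 10 loci and 15 promoters per direction with the highest lowest fold over the calling libraries, genes with at least 3 one-stage regions (at most 10 per direction), and all list genes with a one-stage region in the gene or 10 kb before it. The members and gene lists were chosen with earlier results of these data known. Libraries are pools of 3 mice, and p-values measure the spread between these pools. Both the counting and the limma steps were tested on simulated data. Sex chromosomes were not analysed here, and the sequence of 1 named locus is not reported here.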

Additional observations from a re-analysis of the deposited data

Results flagged for a closer look

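One value is given for a closer look because the stage difference in mean GC content of peaks had a different sign after cocaine and in controls. The difference of differences was 1.79 percentage points, with an exact permutation p of 0.04 over 400 assignments of stage labels within treatment and an adjusted p of 0.12 over 3 interactions, so it fails the correction. After cocaine, proestrus libraries 1 and 4 lay below all 3 diestrus libraries and library 2 lay within their range; in controls, diestrus libraries 1 and 3 lay below all 3 proestrus libraries. The values under other settings are given with the other alternatives, and the part of library preparation was not tested.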

How the results depend on the processing

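The one-stage counts depended on the rule. Diestrus only and proestrus only regions numbered 249 and 381 with peaks of -log10 q of at least 5, diestrus only regions 291 with peaks merged within 500 bp, and 1330 and 2910 with the same number of strongest peaks in the 5 libraries without proestrus cocaine library 2, an alternative chosen after seeing the data. Leaving out 1 library gave 787 to 2681 and 1273 to 4677. Promoter counts were 12 and 10 at the stricter q, 12 for diestrus when merged within 500 bp, 47 and 72 within 3 kb of a start, and 37 to 136 and 33 to 122 without 1 library. The other 3 alternatives left all 4 counts within 1.5 times, with 353 to 492 and 605 to 876 regions. Of the 59 diestrus only and 98 proestrus only regions named by rule, 29 and 38 kept their pattern with equal numbers of peaks, 12 and 12 at the stricter q. Each of these counts includes all 10 tallest loci of its class. Those were chosen for strong calls, so that they kept their pattern is no check.

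Among shared regions, 0 were called toward diestrus by limma in all 12 settings, and 0 to 8 toward proestrus without 1 library; the 8 were called without proestrus cocaine library 1 alone and follow proestrus library 4, as given below. Omitting the centring moved the median log2 difference from 0.01 to 0.12. Library numbers 1 and 2 occur in both stages. The deviations of equally numbered libraries correlated at -0.034 and 0.017, against -0.094 to 0.101 for unequal numbers. So few libraries cannot exclude that equal numbers mark a shared preparation. With the replicate block 0 and 0 shared regions were called.

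Directions that turned were all of differences without support in the test. They were median peak width with equal numbers of peaks (-6 bp) and the estrogen response element share (0.00034 percentage points), and the interaction of the AP-1 share with equal numbers of peaks (-0.393). Without 1 library, the difference in peaks ran from -19869 to 8550, in width from -0.333 to 7.17 bp, in promoter share from -0.278 to 1.88, in AP-1 share from -0.0169 to 0.783 and in cAMP response element share from -0.0257 to 0.0430 percentage points. The AP-1 interaction ran from -0.314 to 0.486.

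The GC interaction kept its direction but missed 0.05 with the stricter q (1.43, exact permutation p = 0.075) and with equal numbers of peaks (1.07, p = 0.18), and ran from 1.37 to 2.34 without 1 library, where the exact permutation p ran from 0.015 to 0.1 and 9 of the 12 omissions missed 0.05. The peak number interaction ran from -31042 to -2624 without 1 library and passed 0.05 only without diestrus cocaine library 1 (exact permutation p = 0.015). The cause of these shifts was not tested. Read depth is unknown, which limits every call of absence.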

Other observations

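At 8 shared regions proestrus cocaine library 4 stood far above the other 5 libraries. Nearest Arid1b, a chromatin remodeler gene (chr17:4626039-4626748), its fold enrichment was 76.4, against 12.6, 9.56 and 4.59 in the diestrus libraries and 6.21 and 12.8 in proestrus libraries 1 and 2. Nearest Gm8882 (chr6:132463563-132463965) it was 35.1, in an intron of Acacb, a fatty acid metabolism gene (chr5:114172937-114173324), 37.6, and in an intron of Fam227b (chr2:126147723-126148103) 31.3, where the next highest library had 10.5. The other 4 were nearest Bcl11a, Pou4f1 and Malt1 and in an intron of Dpp9. These are values of 1 library and no difference between the stages.

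One-stage regions were spread unevenly over the chromosomes. Chromosome 7 held 6 diestrus only (0.0667%) and 8 proestrus only regions (0.0889%) of 9001, the lowest shares of the 19 autosomes in both directions. The highest proestrus only share was on chromosome 1 (100 of 16115, 0.621%) and the highest diestrus only share on chromosome 16 (29 of 7956, 0.365%). The median GC content of merged regions was 48.3% on chromosome 7, 42.8% on chromosome 1 and 43.3% on chromosome 16, and its part in these shares was not tested.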
